A study of Mus musculus with 9 samples.

Results

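The 10 core circadian clock genes Clock, Arntl, Per1, Per2, Per3, Cry1, Cry2, Nr1d1, Nr1d2 and Dbp were chosen by gene symbol, as 10 of the 18193 genes with a probe set assigned to a single gene. The cells were NIH 3T3, a mouse fibroblast line of embryonic origin, and their RNA was measured on 9 Affymetrix expression arrays. The 3 groups of 3 arrays each, biological replicates per the labels, carried a retroviral shRNA vector targeting Ube2m, one targeting Ube2f or one with a control hairpin, and all cells were harvested 5 days after transduction. Ube2m and Ube2f encode the E2 enzymes of the NEDD8 pathway, which attaches this small relative of ubiquitin to cullins and so activates cullin-based ubiquitin ligases. In the growth label all 9 cultures are said to express Ube2f, and it is unclear if a construct had been added. The sources used here do not give how many hairpins or clones were used, the hour of harvest or any step that synchronised the cultures.

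The mammalian clock is a transcriptional loop. The proteins CLOCK and BMAL1 (the product of Arntl) bind E-boxes and switch on the Per and Cry genes, whose proteins return to the nucleus and repress CLOCK and BMAL1. A linked loop runs through the nuclear receptors REV-ERB alpha and beta (Nr1d1 and Nr1d2), which repress Arntl through ROR elements, and DBP is an output factor that acts through D-boxes. Cullin ligases remove several clock proteins, and those with beta-TrCP (Btrc, Fbxw11) target the PER proteins. Fibroblast lines keep such clocks, which run out of step with each other between cells unless they are synchronised. The arrays measure RNA only, and in a culture fewer cells with a transcript and less of it per cell cannot be told apart.

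To show elements through which loop members are read, the promoters of Cry1, Per3 and Nr1d2 are printed from RefSeq (GRCm38.p6, 250 bases before to 50 after the annotated start, each 5′ to 3′ on its gene's strand). The search covered both strands for the E-box CACGTG, the D-boxes TTATGTAA and TTACGTAA, and the ROR element cores AGGTCA and GGGTCA. Matches are in capitals. Cry1 (chr10:85185005-85185304, minus strand) had 1 E-box, beginning 60 bases before the start. Per3 (chr4:151044616-151044915, minus strand) had 2 D-boxes, beginning 205 and 158 bases before it. Nr1d2 (chr14:18239057-18239356, minus strand) had 1 ROR core, beginning 77 bases before it.
Cry1: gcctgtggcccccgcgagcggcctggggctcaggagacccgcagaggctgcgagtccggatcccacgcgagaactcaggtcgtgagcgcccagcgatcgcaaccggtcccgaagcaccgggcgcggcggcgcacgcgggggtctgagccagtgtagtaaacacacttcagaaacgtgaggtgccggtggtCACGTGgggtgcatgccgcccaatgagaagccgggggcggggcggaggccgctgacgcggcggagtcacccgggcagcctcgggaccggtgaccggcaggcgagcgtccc
Per3: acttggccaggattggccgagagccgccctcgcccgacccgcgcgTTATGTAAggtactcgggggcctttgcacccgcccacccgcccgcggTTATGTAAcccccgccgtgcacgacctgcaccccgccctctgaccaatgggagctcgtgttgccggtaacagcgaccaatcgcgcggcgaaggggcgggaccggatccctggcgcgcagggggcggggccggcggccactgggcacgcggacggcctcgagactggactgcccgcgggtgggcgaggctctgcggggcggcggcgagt
Nr1d2: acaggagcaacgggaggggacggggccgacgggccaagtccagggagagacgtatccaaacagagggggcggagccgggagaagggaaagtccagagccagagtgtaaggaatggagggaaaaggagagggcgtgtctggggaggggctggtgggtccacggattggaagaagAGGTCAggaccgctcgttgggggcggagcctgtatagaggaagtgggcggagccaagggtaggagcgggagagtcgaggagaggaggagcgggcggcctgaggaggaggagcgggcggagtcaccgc
The table matched 9 of the 10 genes with 13 promoters, and Per2 was not in it. E-boxes were found for 2 members (Per1 and Cry1), a D-box for 1 (Per3) and a ROR core for 4 (Clock, Arntl, Per1 and Nr1d2). Counted by promoter, these were 2, 1 and 4 of the 13. Of all 32851 promoters in the table, 7.15% held the E-box, 1.06% a D-box and 27.5% a ROR core. A match describes the letters in this window and is no evidence of binding.

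Signals are linear MAS5 intensities, and tests used log2(signal + 16) in a limma model of all 9 arrays, with Benjamini-Hochberg adjustment over the 10613 genes tested in a comparison and a threshold of 0.05. The 10 genes had 23 probe sets, and the one with the highest mean stands for each gene. All 10 passed the filter on low signals (mean log2 value of at least 6.12, a signal of 53.8). Ube2f itself, by the brightest of its 6 probe sets, read 132 ± 13.2 with Ube2f shRNA, against 2539 ± 199 in control (SD, n = 3 arrays each). No probe set in the table used carried the name Ube2m, so the Ube2m knockdown was not checked. Over all probe sets the median was 64 to 73.5 on the replicate 3 arrays and 53.3 to 58.5 on the other 6. Control replicate 1 had a 3′ to 5′ beta-actin ratio of 1.82, against 1.24 to 1.35 on the other 8 arrays. Of 13 fibroblast markers 12 were above the low-signal level and Fap was not; their summed signals were 138880 to 155762 with Ube2m shRNA, 157844 to 178852 with Ube2f shRNA and 143421 to 175827 in control. Single fibroblast markers moved: 3 of the 12 were lower with Ube2m shRNA than in control (Col5a1, Thy1 and Prrx1), 5 were lower with Ube2m than with Ube2f shRNA (these 3, Pdgfra and Pdgfrb, by -0.51 to -0.96 on the log2 scale), and Pdgfra was higher with Ube2f shRNA than in control (0.72, limma adjusted p = 0.00997). Of all genes tested, 6.12%, 9.38% and 2.23% passed in these same directions and comparisons.

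Of markers of other cells, 0 of 5 endothelial and 0 of 4 adipocyte ones were above the low-signal level. Of 7 macrophage markers 2 were (Csf1r and Lyz2), while Ptprc was not, and the summed signals were 386 to 654 with Ube2m shRNA, 450.5 to 495 with Ube2f shRNA and 499 to 536 in control. Of 5 skeletal muscle markers 2 were (Des and Acta1), while Myod1, Myog and Ckm were not, and the sums were 1023 to 1213 with Ube2m shRNA, 609 to 707 with Ube2f shRNA and 614.5 to 853 in control. Acta1 was higher with Ube2m shRNA than in control (0.68, limma adjusted p = 0.0278) and than with Ube2f shRNA (0.97, adjusted p = 0.00253). The medians of the 2 in these comparisons were 0.29 and 0.36, so the value of Des was below 0 in both. Of 7 epithelial markers 3 were (Epcam, Cdh1 and Krt14), with sums of 5787 to 6502 with Ube2m shRNA, 2718 to 4180 with Ube2f shRNA and 3239 to 5348 in control. Krt14 was higher with Ube2m than with Ube2f shRNA (0.98, limma adjusted p = 0.00599). The median of the 3 in that comparison was -0.20, so Epcam and Cdh1 went the other way. The calls of fibroblast markers, Acta1 and Krt14 include the comparison that holds the Cry1 call, and the part of these markers in the results was not tested.

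The counts of clock genes past the adjusted threshold lay near the shares of all genes. In limma 0 of 10 members passed between Ube2m shRNA and control, where 9.71% of all genes tested did (3.59% higher, 6.12% lower). Between Ube2f shRNA and control 0 of 10 passed, against 5.19% of all genes (2.23% higher, 2.96% lower). Between Ube2m and Ube2f shRNA 1 member passed, Cry1, which was lower, against 15.8% of all genes (6.37% higher, 9.38% lower). At an unadjusted p under 0.05 the members numbered 4, 3 and 4 in these comparisons, against 24.8%, 20.2% and 28.7% of all genes. The median log2 fold change of the members was -0.18 between Ube2m shRNA and control (-0.04 over all genes tested), -0.16 between Ube2f shRNA and control (0.01) and -0.14 between Ube2m and Ube2f shRNA (-0.04). The first 2 comparisons share the control arrays.

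**Figure D1:**
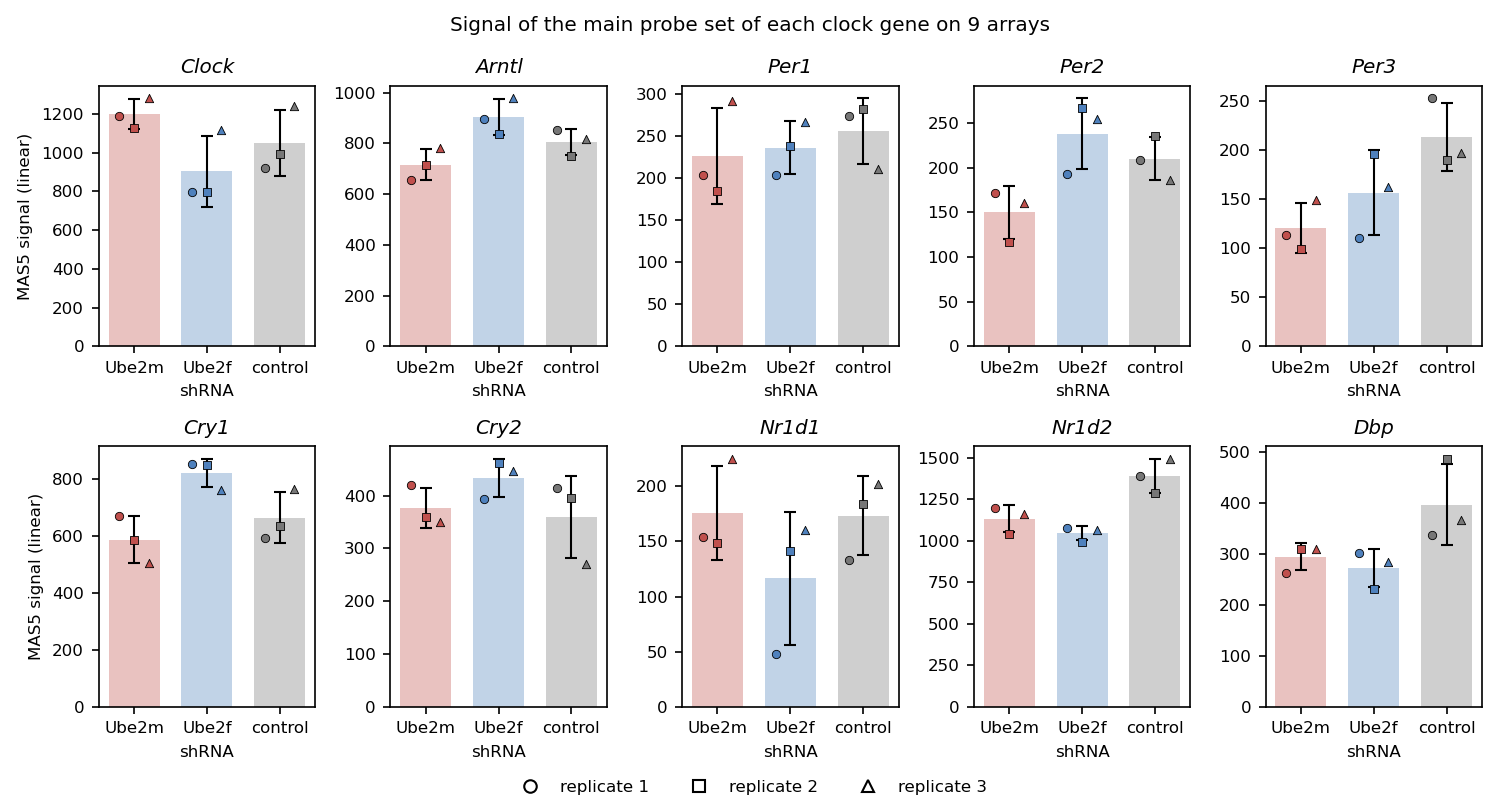
Linear MAS5 signal of the main probe set of each clock gene with Ube2m, Ube2f and control shRNA. Bars are means, error bars the SD over 3 arrays and symbols the replicates. Nr1d2 and Dbp lie lower on all targeted arrays than on any control array. Cry1 lies higher on all Ube2f arrays than on any Ube2m array, and control replicate 3 reaches the Ube2f range.

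Of the activators, Clock encodes the histone acetyltransferase partner of the CLOCK-BMAL1 pair. Its main probe set read 1191, 1126 and 1281 with Ube2m shRNA, 798, 797 and 1117.5 with Ube2f shRNA, and 919.9, 992 and 1244 in control, for replicates 1, 2 and 3. The Ube2m arrays all lay above the Ube2f arrays, and the control arrays overlapped both. The log2 fold change between Ube2m and Ube2f shRNA was 0.42 (SE 0.15, limma adjusted p = 0.0881), with 0.53 in replicates 1 and 2 (adjusted p = 0.00788) and 0.19 in replicate 3. Against control it was 0.20 (95% interval -0.14 to 0.53) with Ube2m shRNA and -0.22 (-0.55 to 0.11) with Ube2f shRNA. Without Ube2f replicate 3 the difference between Ube2m and Ube2f shRNA passed (0.58, adjusted p = 0.0174). The 3 other Clock probe sets gave -0.04, 0.14 and -0.33 there, none of which passed. Against control with Ube2f shRNA, the value was -0.10 without control replicate 3 and -0.38 without Ube2f replicate 3, and -0.14 without either of the other Ube2f arrays.

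Arntl encodes BMAL1, the obligate partner of CLOCK. Its signal was 657, 713 and 781 with Ube2m shRNA, 895, 839 and 978 with Ube2f shRNA, and 851, 751 and 816 in control. Ube2m arrays were all below the Ube2f arrays, and control arrays overlapped both groups. The log2 fold change between Ube2m and Ube2f shRNA was -0.33 (SE 0.12, limma adjusted p = 0.0801), with -0.33 in replicates 1 and 2 and -0.32 in replicate 3. A dimmer probe set gave -0.43 and did not pass (SE 0.42, limma adjusted p = 0.634 with every probe set tested on its own). Against control the main probe set gave -0.17 (95% interval -0.42 to 0.09) with Ube2m shRNA and 0.16 (-0.09 to 0.42) with Ube2f shRNA. The dimmer one gave -0.02 and 0.42, and neither passed.

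Among the repressors, Cry1, a cryptochrome that binds CLOCK and BMAL1 and is the main brake of the loop, held the 1 call. It read 670.4, 583 and 505 with Ube2m shRNA, 851, 847 and 762 with Ube2f shRNA, and 590.1, 635 and 764 in control. Every Ube2f array was above every Ube2m array, and control replicate 3 reached the Ube2f range. The means were 586 ± 82.9 with Ube2m and 819.7 ± 50.2 with Ube2f shRNA (SD, n = 3 arrays each), or -0.48 on the log2 scale (SE 0.14, limma adjusted p = 0.0346). It was -0.43 in replicates 1 and 2 and -0.58 in replicate 3.

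The Cry1 call lay near the threshold. Leaving out Ube2m replicate 2 gave -0.48 (adjusted p = 0.0972), leaving out Ube2m replicate 3 -0.38 (0.119), leaving out Ube2f replicate 1 -0.45 (0.116) and leaving out Ube2f replicate 2 -0.46 (0.0994). It was 0.158 with each array centred on its median (-0.50), 0.0718 with quantile normalization (-0.46), 0.0551 with no filter on low signals and 0.0615 with every probe set tested on its own, where 9.53% of 22519 passed. Against control, Cry1 differed by -0.17 with Ube2m shRNA (95% interval -0.48 to 0.13) and by 0.31 with Ube2f shRNA (0.003 to 0.61, adjusted p = 0.242). In replicate 3 alone these were -0.58 and -0.004.

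The genes whose log2 values followed those of Cry1 most closely over the 9 arrays were Shmt1, Mettl15 and Kbtbd3. Each gene was centred on its own mean, and the root mean square differences were 0.07, 0.093 and 0.096, beside an SD of 0.255 for Cry1 itself. Their log2 fold changes between Ube2m and Ube2f shRNA were -0.42, -0.41 and -0.67.

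Cry2, the other cryptochrome, showed no separation of groups. Its signal was 419.8, 359 and 349.8 with Ube2m shRNA, 393, 461.5 and 447 with Ube2f shRNA, and 414, 395 and 271 in control. The log2 fold changes were 0.08 (95% interval -0.29 to 0.45) with Ube2m and 0.28 (-0.09 to 0.65) with Ube2f shRNA against control, and control replicate 3 was the lowest of the 9 arrays. Without it the Ube2f value was 0.09.

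The Period genes encode the PER proteins, partners of the cryptochromes in the loop. Per3 had the lowest fold among the members with Ube2m shRNA. It read 113, 99.5 and 149 with Ube2m shRNA, 111, 197 and 163 with Ube2f shRNA, and 253, 190.5 and 198 in control. All Ube2m arrays were below all control arrays, and the Ube2f arrays ran into both ranges. The Ube2m mean was 56.5% of control (121 ± 25.6 against 214 ± 34.3, SD, n = 3 arrays each), or -0.76 on the log2 scale (SE 0.23, 95% interval -1.26 to -0.25, limma adjusted p = 0.0607).

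The same Per3 difference had an adjusted p of 0.0393 in replicates 1 and 2 alone (-0.95), 0.0335 with replicate 3 as a batch term, 0.0487 without Ube2m replicate 3 (-0.90) and 0.0457 with quantile normalization (-0.80). It was -0.37 in replicate 3. Without control replicate 1, the array with the high beta-actin ratio, it was -0.64 (adjusted p = 0.204). The 5 other Per3 probe sets were dimmer, 3 of them below the low-signal level, and gave -0.17 to 0.17. With all 6 averaged the fold was -0.14 (adjusted p = 0.789). Between Ube2f shRNA and control the main probe set gave -0.43 (95% interval -0.94 to 0.07), and -0.22 without Ube2f replicate 1.

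Per2 read 172, 117 and 161 with Ube2m shRNA, 193, 267 and 255 with Ube2f shRNA, and 208, 235 and 187 in control. The Ube2m arrays lay below every array of both other groups. The log2 fold change was -0.62 between Ube2m and Ube2f shRNA (SE 0.2, limma adjusted p = 0.052), with -0.62 in replicates 1 and 2 and -0.61 in replicate 3. Against control it was -0.46 with Ube2m shRNA (95% interval -0.88 to -0.03, adjusted p = 0.174) and 0.16 with Ube2f shRNA (-0.27 to 0.59). Without Ube2m replicate 2 the Ube2m value against control was -0.30. Of its other probe sets, the one above the low-signal level gave -0.45 with Ube2m and -0.64 with Ube2f shRNA against control, and 0.18 between Ube2m and Ube2f shRNA. The one below that level gave 0.20, -0.28 and 0.48 in the same comparisons. Without Ube2f replicate 1 the main probe set passed (-0.75, adjusted p = 0.0489).

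Per1, the Period gene most quickly induced by serum and glucocorticoids, had 204, 184 and 291 with Ube2m shRNA, 203, 238 and 266 with Ube2f shRNA, and 274, 282 and 211 in control. The groups overlapped in every comparison. Replicate 3 was the highest array in both targeted groups and the lowest in control. Its log2 fold changes were -0.18 (95% interval -0.61 to 0.25) with Ube2m and -0.11 (-0.54 to 0.32) with Ube2f shRNA against control.

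**Figure D2:**
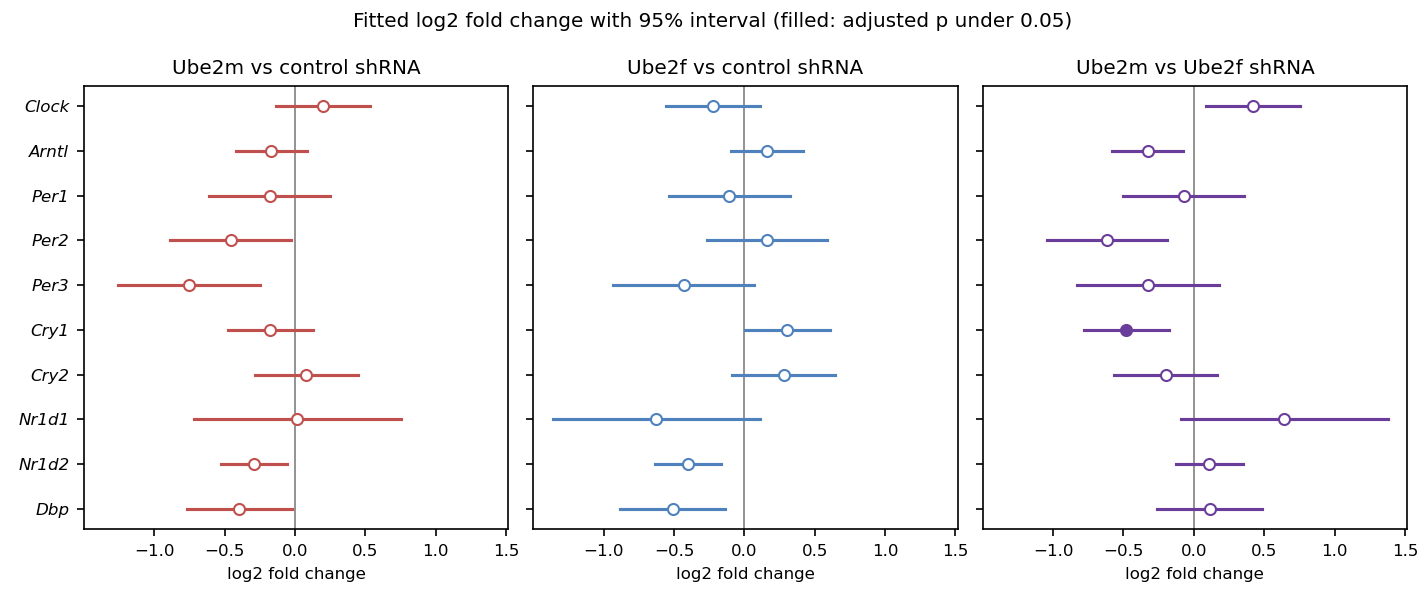
Log2 fold change of each clock gene in the 3 comparisons, with the 95% interval of the limma fit. The filled point is Cry1 between Ube2m and Ube2f shRNA, the 1 value past the adjusted threshold; Per3, Per2, Nr1d2 and Dbp with Ube2m shRNA have intervals below 0 without passing it.

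Of the nuclear receptors, Nr1d2 (REV-ERB beta) was the most even across replicates, with an SD within groups of 0.093 on the log2 scale, beside a median of 0.191 over all genes tested. It read 1194, 1039.5 and 1162 with Ube2m shRNA, 1075.5, 994.5 and 1066 with Ube2f shRNA, and 1387, 1287 and 1493 in control. Every array of either targeted group was below every control array. The Ube2f mean was 75.3% of control (1045 ± 44.3 against 1389 ± 103, SD, n = 3 arrays each), or -0.40 on the log2 scale (SE 0.11, 95% interval -0.64 to -0.17, limma adjusted p = 0.0515). With Ube2m shRNA it was 81.5% of control (1132 ± 81.5), or -0.29 on the log2 scale (SE 0.11, adjusted p = 0.114).

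For Nr1d2 the adjusted p was 0.0111 with Ube2f and 0.0383 with Ube2m shRNA when replicate 3 was a batch term. In replicates 1 and 2 alone the folds were -0.36 (adjusted p = 0.073) and -0.26 (adjusted p = 0.157), and in replicate 3 -0.48 and -0.36. A dimmer Nr1d2 probe set gave -0.52 with Ube2f and -0.31 with Ube2m shRNA, and neither passed.

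Nr1d1 (REV-ERB alpha), the stronger repressor of Arntl, was the most variable member, with an SD within groups of 0.522 on the log2 scale. It read 154, 148.5 and 225 with Ube2m shRNA, 48, 141 and 160 with Ube2f shRNA, and 133, 184 and 202 in control. Ube2f replicate 1 stood far below the other 8 arrays. The log2 fold change was 0.02 with Ube2m shRNA (95% interval -0.72 to 0.75) and -0.63 with Ube2f shRNA (-1.36 to 0.11) against control. Between Ube2m and Ube2f shRNA it was 0.64 (adjusted p = 0.239). Without Ube2f replicate 1 the Ube2f value against control was -0.17, and that between Ube2m and Ube2f shRNA 0.18.

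Dbp, a PAR bZIP output factor driven directly by CLOCK and BMAL1, was lower on all targeted arrays than on any control array by both of its probe sets. The main one read 263, 310.4 and 310.2 with Ube2m shRNA, 302, 230.4 and 284 with Ube2f shRNA, and 336.5, 487 and 365.5 in control. The other read 184, 169.8 and 172 with Ube2m shRNA, 160, 178 and 132 with Ube2f shRNA, and 238, 207 and 184.7 in control. The main probe set's log2 fold change was -0.39 with Ube2m shRNA (SE 0.17, limma adjusted p = 0.176) and -0.51 with Ube2f shRNA (SE 0.17, adjusted p = 0.113), and neither passed. In replicate 3 alone they were -0.23 and -0.35. Without control replicate 2, the highest array, the Ube2m value was -0.24 (adjusted p = 0.455).

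Groups that do not overlap were thus found for 4 members between Ube2m shRNA and control (Per2, Per3, Nr1d2 and Dbp, all lower), 2 between Ube2f shRNA and control (Nr1d2 and Dbp, both lower) and 4 between Ube2m and Ube2f shRNA (Clock higher; Arntl, Per2 and Cry1 lower). The same held for 29.7%, 23.2% and 34.4% of all genes tested in these comparisons, counting lower values alone for 18%, 11.6% and 20.6%, and higher values alone for 11.6%, 11.6% and 13.7%.

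Between Ube2m and Ube2f shRNA, arrays with the same replicate number deviated together (correlations of 0.20 to 0.56 over genes), so the replicate number was also fitted as a block. With the replicate block 4 members passed in limma in place of 1, namely Cry1 (adjusted p = 0.0238), Clock (0.0112), Arntl (0.0399) and Per2 (0.0477), at the same log2 fold changes. All genes passing numbered 2493 with it and 1672 without it. With every probe set tested on its own, 0 of the members' 19 probe sets above the low-signal level passed in limma in any comparison (the other 4 were not tested), while of all probe sets 4.45% passed with Ube2m and 2.89% with Ube2f shRNA against control, and 9.53% between the targeted groups. The other probe sets of Clock and Per2 given above did not all share the sign of the main one.

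**Figure D3:**
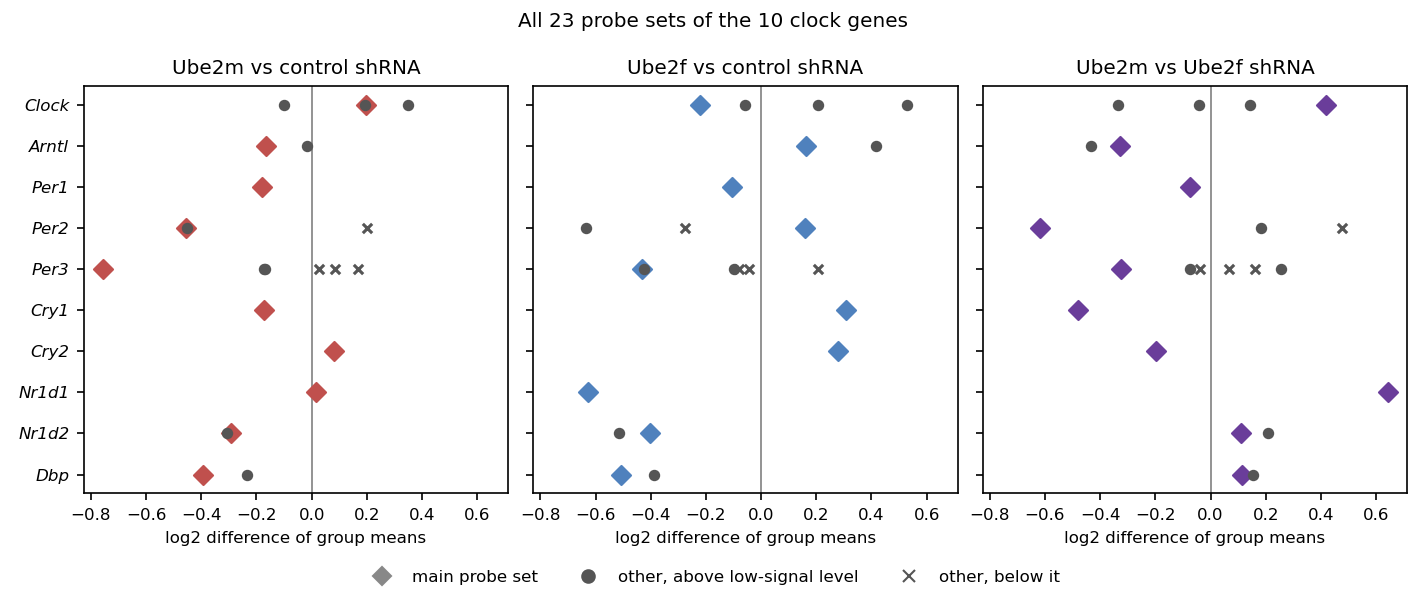
Log2 difference of group means for all 23 probe sets of the 10 genes. Diamonds are main probe sets, dots other probe sets above the low-signal level and crosses those below it. The probe sets of Arntl, of Dbp and of Nr1d2 share a sign in each comparison, and those of Clock, Per2 and Per3 differ in sign in at least 1.

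Genes around the core loop were taken from 6 lists. Their counts stand beside the shares of all genes tested, in which 9.71% passed for Ube2m over control, 5.19% for Ube2f over control and 15.8% for Ube2m over Ube2f, and 24.8%, 20.2% and 28.7% had an unadjusted p under 0.05. Counts at that unadjusted level and list medians are given in this order of comparisons for every list. Of 10 tested clock partners and relatives, among them the CLOCK relative Npas2 and the D-box factor Tef, 0 passed in limma in any of the 3 comparisons (2, 1 and 0 at the unadjusted level). The lowest p was for Tef with Ube2f shRNA, 729 ± 58 against 1012 ± 244 in control (log2 fold change -0.44, limma adjusted p = 0.133, unadjusted p = 0.0156). Npas2, near the low-signal level, gave 0.62 with Ube2m shRNA (adjusted p = 0.177). The list medians were 0.13, -0.04 and 0.11, beside -0.04, 0.01 and -0.04 over all genes tested.

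Of 15 kinases and phosphatases of clock proteins 0 passed in limma against control with either hairpin, and 2 between Ube2m and Ube2f shRNA. Prkaa1, a catalytic subunit of AMPK, which marks CRY1 for removal, was higher, with 861 ± 84.4 against 545 ± 51.5 (SD, n = 3 arrays each, log2 fold change 0.64, limma adjusted p = 0.00959). Prkaa2, the other catalytic subunit, did not pass (0.28, adjusted p = 0.542). Mapk9, a JNK kinase, was lower (-0.37, adjusted p = 0.0285; averaging its probe sets gave -0.09). At the unadjusted level the counts were 0, 3 and 2, and the list medians -0.03, 0.05 and -0.01.

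Of 14 ubiquitin ligase and deubiquitinase genes, 1 was lower with Ube2m shRNA than in control, 0 passed in limma with Ube2f shRNA, and 2 were lower with Ube2m than with Ube2f shRNA. Btrc, a beta-TrCP receptor for PER proteins, had 324 ± 9.13 with Ube2m shRNA, 523 ± 76 with Ube2f shRNA and 473 ± 37.2 in control (SD, n = 3 arrays each). Its log2 fold change was -0.66 against Ube2f shRNA (limma adjusted p = 0.00716) and -0.52 against control (adjusted p = 0.0343). Fbxw11, the other beta-TrCP gene, did not pass. With Ube2m shRNA it gave 0.27 against control (limma adjusted p = 0.222) and -0.003 against Ube2f shRNA (adjusted p = 0.994). Cul4a, a cullin scaffold, was lower with Ube2m than with Ube2f shRNA (-0.44, adjusted p = 0.0385). At the unadjusted level the counts were 5, 1 and 5, and the list medians -0.08, 0.04 and -0.01.

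Of 16 cofactor genes, 2 were lower with Ube2m shRNA than in control, 0 passed in limma with Ube2f shRNA, and 1 was lower with Ube2m than with Ube2f shRNA. Id2, a helix-loop-helix inhibitor that binds CLOCK and BMAL1, had 2117 ± 359 with Ube2m shRNA, 5002 ± 121 with Ube2f shRNA and 3516 ± 544 in control. The log2 fold changes were -1.25 against Ube2f shRNA (limma adjusted p = 9.14e-05) and -0.73 against control (adjusted p = 0.00727), and 0.52 for Ube2f shRNA against control (adjusted p = 0.0522). Crebbp, the coactivator CBP, was lower with Ube2m shRNA than in control (-0.40, adjusted p = 0.0472), while averaging its probe sets gave 0.12. At the unadjusted level the counts were 2, 3 and 2, and the list medians 0.01, -0.01 and 0.01.

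Of 12 tested output genes, 1 was lower with Ube2m shRNA than in control, 0 passed in limma with Ube2f shRNA, and 2 were higher with Ube2m than with Ube2f shRNA. Tef, Bhlhe40 and Ciart were also counted among the partners and relatives, and Usp2 among the ligases and deubiquitinases. Tfrc, the transferrin receptor, had 3741 ± 290.3 with Ube2m and 2199 ± 394 with Ube2f shRNA (log2 fold change 0.77, limma adjusted p = 0.00432). Noct, the rhythmic phosphatase Nocturnin, was also higher (0.59, adjusted p = 0.0378). Cdkn1a, a cell cycle inhibitor, was lower with Ube2m shRNA than in control (-0.39, adjusted p = 0.0349; averaging its probe sets gave -0.12). At the unadjusted level the counts were 2, 5 and 6, and the list medians 0.10, -0.24 and 0.29.

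Genes of the serum, cAMP and glucocorticoid responses, which reset the clock through Per1, numbered 17 tested. With Ube2f shRNA 2 were higher than in control, the immediate early factors Egr2 (327 ± 92.2 against 150 ± 54.1, log2 fold change 1.06, limma adjusted p = 0.031) and Fos (427 ± 75.7 against 204 ± 107, 1.10, adjusted p = 0.0406), and 0 passed with Ube2m shRNA. Between Ube2m and Ube2f shRNA Fos was lower (-0.98, adjusted p = 0.0322) and Klf9, a glucocorticoid-induced and rhythmic factor, was higher (4829 ± 720.2 against 3191 ± 296, 0.59, adjusted p = 0.00954). At the unadjusted level the counts were 6, 5 and 4, and the list medians 0.12, 0.31 and -0.23.

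Of these list genes, Prkaa1, Id2, Tfrc and Klf9 passed between Ube2m and Ube2f shRNA without any 1 of the 9 arrays, as did Btrc there and Id2 against control. The others passed in 2 to 5 of the 9 fits that leave out an array. With probe sets averaged Klf9 (0.40, adjusted p = 0.252) and both Btrc differences (-0.47, adjusted p = 0.173, and -0.42, adjusted p = 0.268) did not pass, nor did Id2 against control (-0.69, adjusted p = 0.0706), Egr2 (0.0647), Fos against control (0.0591) or Noct (0.0504). With the beta-actin covariate, the calls of Btrc (adjusted p = 0.105), Crebbp (0.161), Cdkn1a (0.117), Egr2 (0.13) and Fos (0.153) against control were lost. With arrays centred, those of Btrc (0.0556), Crebbp (0.0886) and Cdkn1a (0.139) against control and of Mapk9 (0.177), Cul4a (0.0567) and Noct (0.0698) between Ube2m and Ube2f shRNA were lost. Without the filter on low signals, with no intensity trend, with quantile normalization or with only the compared groups fitted, calls of Btrc, Crebbp, Cdkn1a, Egr2, Fos, Cul4a or Noct were lost, at adjusted p of 0.0512 to 0.0843.

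**Figure D4:**
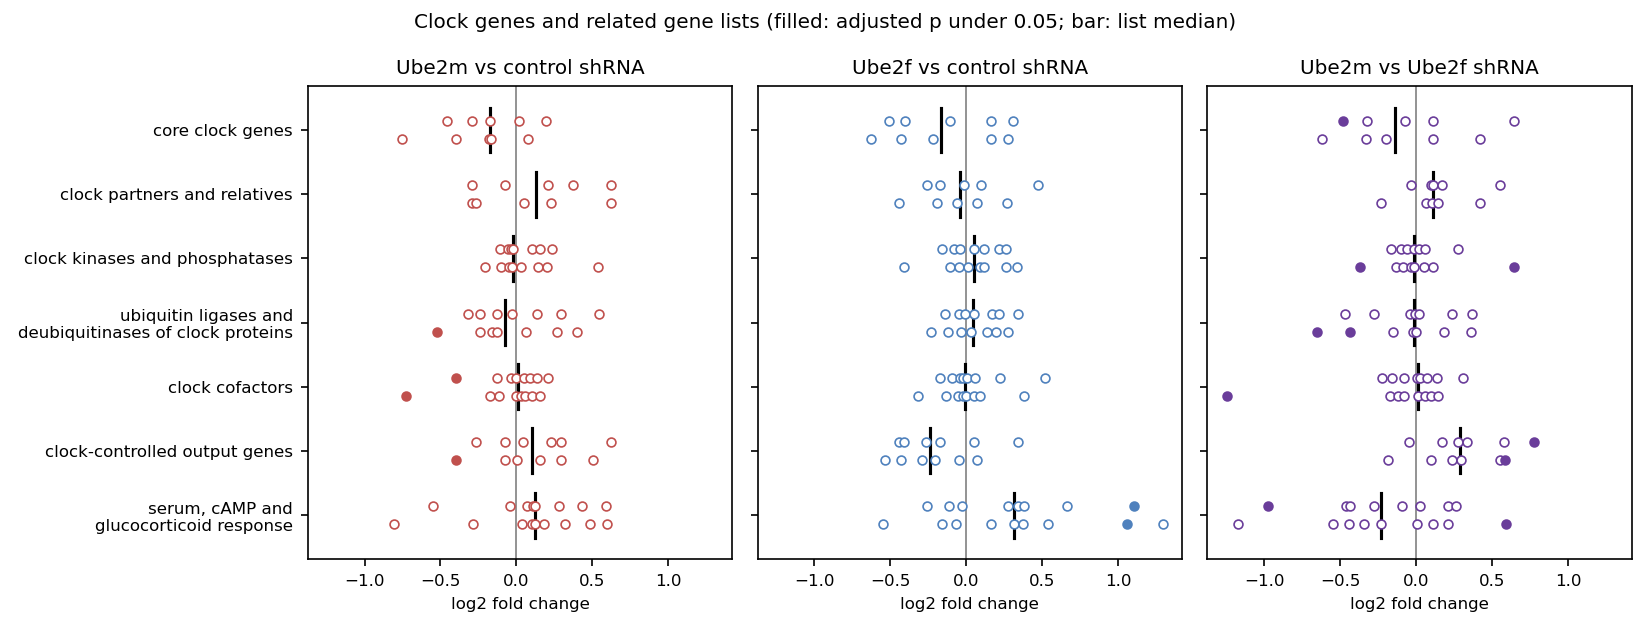
Log2 fold change of the 10 clock genes and of the tested genes of 6 related lists in the 3 comparisons. Tef, Bhlhe40, Ciart and Usp2 are shown in each list that holds them. Each point is a gene, filled where the limma adjusted p was under 0.05, and the bar is the list median; Id2 is the lowest point between Ube2m and Ube2f shRNA, at -1.25.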

How the data were processed

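Per the submitters' processing notes, the authors made the deposited values with MAS5, and they are linear intensity signals of 45101 probe sets on 9 arrays. The sources used here do not give its version or settings. The mean without the top and bottom 2% was 500 on every array, as with scaling by 1 factor. Per the labels, labelled cRNA was made from 6 ug of Trizol RNA.

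Left out of the tests by gene were 64 control probe sets, 932 with several genes and 9160 without a gene name in the probe table. Where every probe set was tested on its own, only the control probe sets were left out before the filter on low signals. The probe set with the highest mean log2(signal + 16) stood for each gene, and genes with a mean at or above the median of all probe sets (6.12) were tested. A model with 1 mean per group was fitted with limma 3.58.1 in R 4.3.3 (eBayes with intensity trend) and tested on simulated data. Every gene p is two-sided. The smallest p of an exact permutation test with 3 arrays a group is 0.1, so none was run. Same-numbered arrays correlated at -0.005 to 0.32 and 0.01 to 0.35 in their deviations between either targeted group and control, and at 0.20 to 0.56 between Ube2m and Ube2f shRNA. The number of arrays limits the precision, the labels call the replicates biological, and what they share is not given. Gene symbols were looked up in RefSeq (GRCm38.p6), which lists all 10. The members, lists, tests and alternatives were chosen with earlier results of these data known. Named list genes were the up to 6 with the smallest adjusted p among those past the threshold in any comparison, otherwise the 2 with the smallest p. Genes alike to a member were the 3 nearest to each member past the threshold.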

Additional observations from a re-analysis of the deposited data

How the results depend on the processing

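The precision is limited by 3 arrays a group and, for dim probe sets, by signals near the background. The count of clock genes past the threshold between Ube2m shRNA and control, 0 in the main setting, was 1 with quantile normalization, 2 with replicate 3 as a batch term, 2 with the replicate block, 1 in replicates 1 and 2 alone, and 0 to 1 with an array left out. Between Ube2f shRNA and control, also 0, it was 1 with the batch term, 1 with the replicate block, 1 in replicates 1 and 2 and 1 with the stricter filter (60th percentile), and 0 with any array left out. Between Ube2m and Ube2f shRNA, 1 in the main setting, it was 0 with arrays centred on their medians, 0 without the filter, 0 with quantile normalization, 2 without the intensity trend, 2 with the stricter filter, 2 in replicates 1 and 2, 4 with the batch term, 4 with the replicate block, and 0 to 2 with an array left out. The numbers of all genes passing in these settings are given below. Of 6 arrays per comparison, 3, 3 and 4 correlated best with their own number.

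Of 720 alternative values of the 30 member differences, 22 newly passed, 7 no longer passed and 16 changed sign in a fit. The values of replicate 3 alone had no test, and 5 of them moved by more than the spread between arrays. The other 670 kept direction and side of the threshold or, for replicate 3 alone, stayed within that spread. Sign changes in replicate 3 alone were not counted among the 16. They were those of Cry1 between Ube2f shRNA and control and of Per1 in all 3 comparisons. The 16 were all uncalled, and the cause was not tested. Between Ube2m shRNA and control they were Cry2 at -0.00637 and Nr1d1 at -0.0705 with arrays centred, Nr1d1 at -0.0285 with quantile normalization and -0.24 with a beta-actin covariate, and, in replicates 1 and 2, Cry1 at 0.0298, Cry2 at -0.0561 and Nr1d1 at -0.0482. With an array left out Nr1d1 ranged from -0.16 to 0.13, Cry2 from -0.10 to 0.19, and Per1 between Ube2m and Ube2f shRNA from -0.26 to 0.0522. With probe sets averaged Clock was 0.11 and Per2 -0.25 between Ube2f shRNA and control, and Per2 0.0138 and Per3 0.00808 between Ube2m and Ube2f shRNA. Crebbp was 0.12 with Ube2m shRNA against control, an alternative chosen after seeing the data.

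All genes past the threshold between Ube2m shRNA and control numbered 1031, against 607 with probe sets averaged, 448 with the beta-actin covariate, 525 with arrays centred, 2118 with the batch term, 1866 with the replicate block, 1747 in replicates 1 and 2, and 388 to 1177 with an array left out. Between Ube2f shRNA and control they numbered 551, against 271, 249, 222, 1461, 1225 and 1121 in the same order, 350 with only the compared groups fitted, and 195 to 583 with an array left out. Between Ube2m and Ube2f shRNA they numbered 1672, against 1109 with probe sets averaged, 868 with arrays centred, 2714 with the batch term, and 1017 to 1813 with an array left out. In that comparison they were also 1387 without the filter, 1517 without the intensity trend, 2032 in replicates 1 and 2 and 2493 with the replicate block. Quantile normalization gave 1647 there and 1012 between Ube2m shRNA and control. The stricter filter gave 1665 there and 579 between Ube2f shRNA and control.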

Other observations

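Across groups, the replicate 3 arrays differed from replicates 1 and 2 more for some clock genes than for others. The mean difference of replicate 3 from the other 2, after centring each gene, was 0.56 on the log2 scale for Nr1d1, 0.33 for Clock, 0.15 for Per1, 0.14 for Per3, 0.13 for Arntl, 0.09 for Nr1d2, 0.03 for Per2, 0.02 for Dbp, -0.05 for Cry1 and -0.21 for Cry2. The signed median over all genes tested was 0.0004, which does not show how far single genes lay from it. For Nr1d1 the SD within groups was 0.522. The replicate 3 arrays were also those with the highest median signal in their groups, and no label says whether they were collected at another time of day.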
